A study of Mus musculus with 30 samples.

Results

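Heat shock proteins and chaperonins are the protein-folding machines of the cell, and their transcripts were followed here in sorted CD4+ T cells from diabetes-prone mice. Members were all probe sets whose only gene symbol named an Hsp70, Hsp90, Hsp110, Hsp60, Hsp10 or small heat shock protein, a J protein (Dnaja, Dnajb or Dnajc) or a subunit of the chaperonin CCT. The rule gave 79 probe sets of 56 genes, out of 12422 probe sets of 8251 singly named genes on the array. They comprised 22 probe sets of 15 cytosolic heat shock protein genes, 23 of 18 cytosolic or nuclear J protein genes, 8 of 7 mitochondrial genes, 12 of 7 genes of the endoplasmic reticulum (ER) and 14 of 9 CCT genes. A name was the only criterion, so the cytosolic class also held Hspbp1, an exchange factor for Hsp70, and Hspb11, a transport protein of cilia. No probe set named Hsp90ab1 alone.

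Cytosolic Hsp70 binds unfolded stretches of new or damaged proteins, J proteins deliver these clients and trigger ATP hydrolysis, and Hsp110 proteins reset the cycle by exchanging the nucleotide. CCT is a double ring of 8 kinds of subunit, Tcp1 and Cct2 to Cct8, that folds actin and tubulin. In mitochondria Hspd1 (Hsp60) and Hspe1 (Hsp10) form a second chaperonin and Hspa9 draws proteins through the inner membrane. In the ER Hspa5 (BiP) and Hsp90b1 (Grp94) fold secreted and membrane proteins. In T cells folding demand rises when the cells grow and divide, and heat shock or ER stress can induce many of these genes.

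All mice were NOD mice that carried the BDC2.5 T cell receptor transgene, which gives most of their T cells a receptor for an islet antigen, so every group is a model of a single specificity. Lymph node cells came from mice aged 4 weeks and were sorted as CD4+CD25+ (5 arrays from mesenteric nodes, 3 from peripheral nodes) or CD4+CD25- (3 arrays from each). Infiltrated pancreas of mice given rat IgG gave regulatory T (Treg) cells sorted as CD4+CD25+CD69- (3 arrays) and effector T (Teff) cells sorted as CD4+CD25lo/-CD69+/- (5 arrays), with no age in the labels. A second pancreatic set held CD4+CD25+ Treg and CD4+CD25- Teff cells (3 arrays each) of mice aged 26 days given an antibody to the costimulatory receptor ICOS. It also held IgG Treg cells (CD4+CD25+CD69-, 2 arrays), replicate 1 from a mouse aged 4 weeks and replicate 2 aged 26 days. That replicate 2 and IgG Treg replicate 3 of the first set share an array number, so the IgG Treg cells of both sets are not independent. The labels do not state whether replicates were separate mice, so p-values measure the spread between these arrays only. Because whole sorted populations were measured, fewer expressing cells and less RNA per cell cannot be told apart.

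The sort labels were checked on Treg markers, of which Foxp3 had no probe set. In the mesenteric node the summed intensity of the other 4 (Il2ra, Ctla4, Tnfrsf18, Il10) ranged from 683 to 877 in CD25+ and from 208 to 254 in CD25- arrays. In the peripheral node it ranged from 610 to 884 and from 271 to 369, and in IgG pancreas from 1134 to 1427 in Treg and from 315 to 387 in Teff arrays. Anti-ICOS Treg arrays ranged from 310 to 1457 and overlapped their Teff arrays (314 to 369). Mesenteric CD25+ replicate 2 has a CD25- source name, and all peripheral arrays carry a mesenteric tissue entry, so titles set the groups; leaving out that replicate kept 14 of 14 mesenteric calls. Array medians ran from 25.3 to 27.1 intensity units in nodes, from 32.5 to 34.5 in the first pancreatic set and from 27.9 to 29.8 in the second. The labels give 2 rounds of amplification for the first pancreatic set and for mesenteric CD25- replicate 1, and no number for the other arrays. The log2 3'/5' signal ratio of actin, a measure of RNA truncation, averaged 3.75 in IgG Treg and 2.65 in Teff arrays (exact permutation test, two-sided, p = 0.0357, adjusted 0.175 over 7 such tests). It averaged 2.85 against 2.63 in mesenteric and 3.02 against 2.54 in peripheral CD25+ and CD25- arrays (exact permutation p = 0.0714 and 0.1). With 3 against 3 peripheral arrays there are 20 splits, and 0.1 is the smallest p this test can give. The peripheral ratios were 2.76 to 3.30 in CD25+ and 2.32 to 2.70 in CD25- arrays, so they followed the sort without overlap. The part of amplification in this ratio was not tested.

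Some members have promoters with a recognized stress element, and examples are shown first. RefSeq windows of 300 bases (250 before and 50 after the transcript start, GRCm38.p6) were found for 48 of the 56 member genes. The heat shock element, searched on both strands as the units GAA, TTC and GAA with any 2 bases between neighbours, stood in 0.603% of all 32851 windows and in those of 4 member genes, Hspd1, Hspe1, Hsph1 and Dnajb6. The heat-inducible Hspa1a, Hspa1b and Dnajb1 had no exact match, so the lack of a match does not show that a gene lacks the element. Hspd1 and Hspe1 are transcribed away from each other, and the 215 bases between their starts (chr1:55087933-55088147, written along the Hspe1 strand, +) hold 2 overlapping matches in 18 bases in capitals, the first starting 89 bases before the Hspe1 start. Dnajb6 (chr5:29735648-29735897, + strand) has 1 match, in capitals, starting 46 bases before its start.
Hspe1: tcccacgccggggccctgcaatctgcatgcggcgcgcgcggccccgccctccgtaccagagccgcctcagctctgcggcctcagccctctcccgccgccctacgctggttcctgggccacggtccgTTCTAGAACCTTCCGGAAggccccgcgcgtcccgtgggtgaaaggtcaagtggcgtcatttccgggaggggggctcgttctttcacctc
Dnajb6: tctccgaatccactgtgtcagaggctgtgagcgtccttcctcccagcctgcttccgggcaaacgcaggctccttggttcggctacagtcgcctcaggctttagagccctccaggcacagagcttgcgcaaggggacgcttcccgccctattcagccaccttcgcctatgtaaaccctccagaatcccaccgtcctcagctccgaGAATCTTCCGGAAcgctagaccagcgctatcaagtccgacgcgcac

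The ER stress response element, searched on both strands as CCAAT and CCACG with any 9 bases between them, stood in 0.119% of all windows and in those of 3 member genes, Hspa5, Hsp90b1 and Dnajc3. Hspa5 (chr2:34771840-34772089, + strand) has 1 match, in capitals, starting 65 bases before the start. Hsp90b1 (chr10:86705445-86705694, - strand) has 2, starting 212 and 107 bases before the start, the second on the other strand. Cct8, Cct6a, Dnaja1, Dnajc7, Hspb11 and Dnajb11, which passed in results below, had no match to either element. A match describes letters in a window and is no measurement of binding.
Hspa5: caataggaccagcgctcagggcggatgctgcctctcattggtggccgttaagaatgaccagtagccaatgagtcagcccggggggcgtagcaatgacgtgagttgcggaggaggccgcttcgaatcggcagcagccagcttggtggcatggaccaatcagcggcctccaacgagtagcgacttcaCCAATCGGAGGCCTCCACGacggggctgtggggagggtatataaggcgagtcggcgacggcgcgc
Hsp90b1: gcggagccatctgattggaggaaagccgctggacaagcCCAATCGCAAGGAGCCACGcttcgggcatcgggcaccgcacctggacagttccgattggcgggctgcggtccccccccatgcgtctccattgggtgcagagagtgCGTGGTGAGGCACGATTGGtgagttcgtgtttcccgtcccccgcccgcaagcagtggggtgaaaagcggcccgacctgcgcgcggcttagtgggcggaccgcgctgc

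The chaperones that differed between CD25+ and CD25- node cells were nearly all lower in CD25+ cells. With limma and a Benjamini-Hochberg adjusted p under 0.05 over all 12422 probe sets, 14 of 79 member probe sets (17.7%) passed in mesenteric nodes, 13 lower and 1 higher. The background was 12.2% of all probe sets there, 7.53% lower and 4.66% higher. In peripheral nodes 15 of 79 passed (19%), all lower, against 7.69% of all probe sets, 5.89% lower and 1.8% higher. Chaperone transcripts were bright as a group: 58 of the 79 lay above the median probe set. Of these 58, 12 were lower in the mesenteric and 15 in the peripheral node, against 12.7% and 10.2% of all probe sets that bright. The median log2 difference over the 79 was -0.04 in mesenteric and -0.12 in peripheral nodes, against 0.04 and 0.05 over all probe sets. The 2 node comparisons shared no array but shared a fitted spread, and 10 probe sets of 9 genes passed in both, 10 of the mesenteric 14 and 10 of the peripheral 15. Node groups said below to be apart or not to overlap are those of members already past the threshold. No share over all probe sets stands beside such statements, so they describe the values and add nothing to a call.

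**Figure D1:**
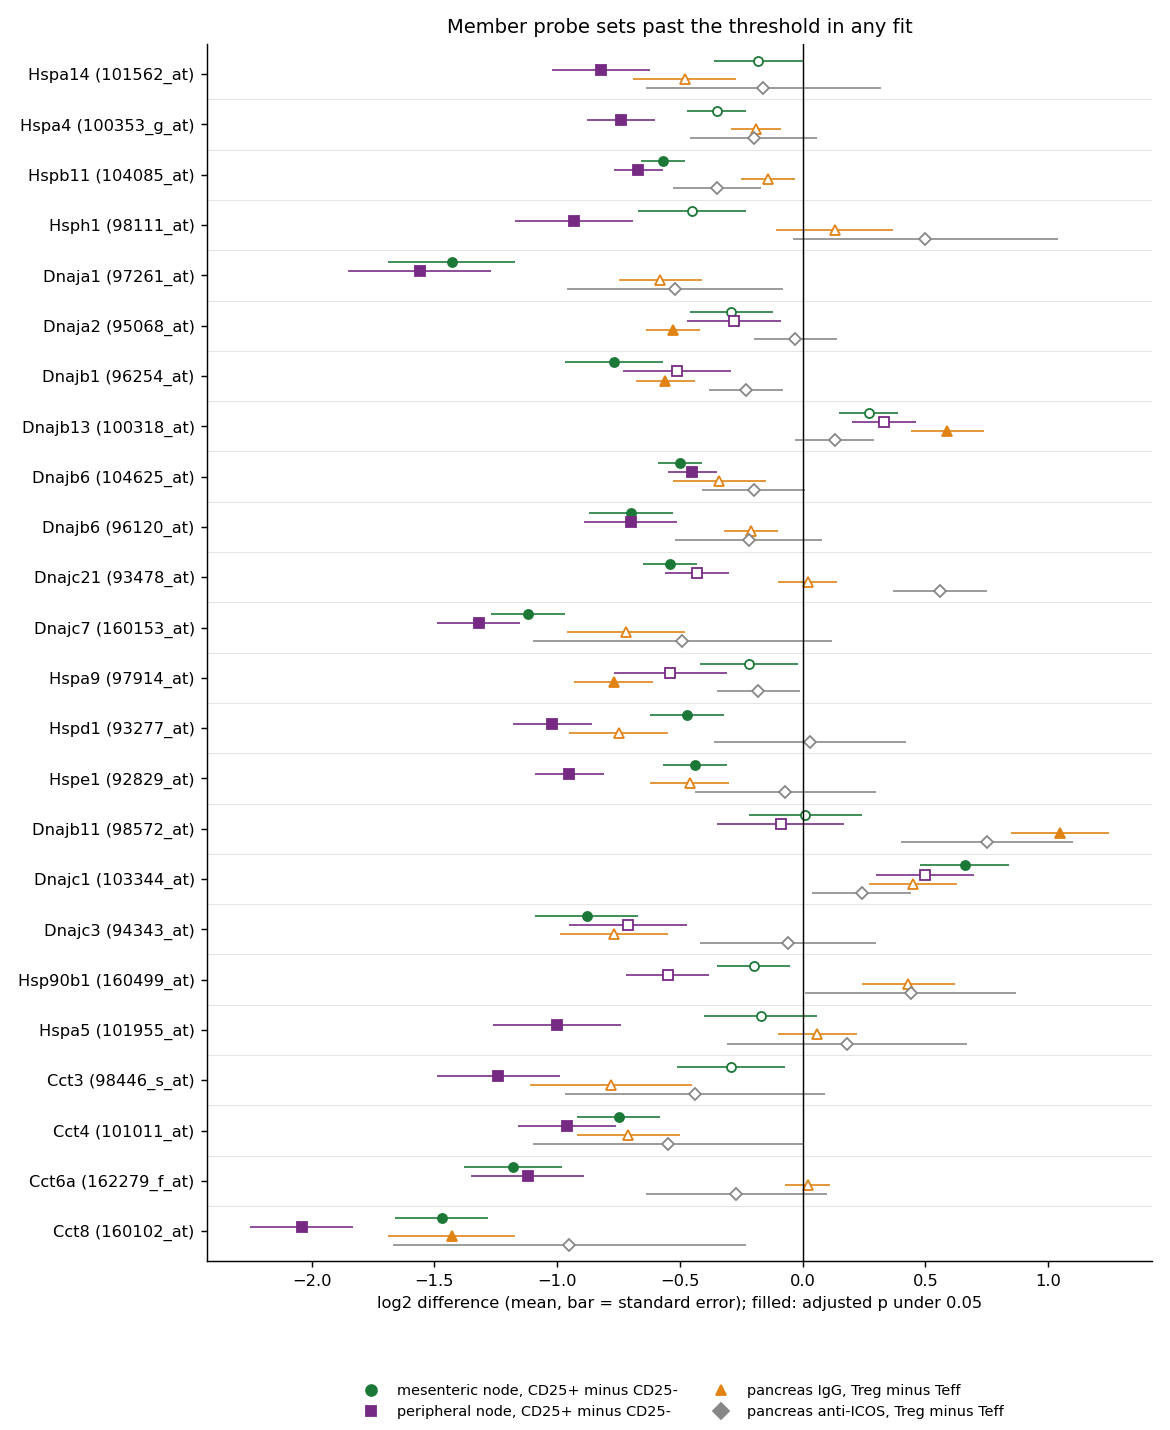
Log2 difference (x axis, first group minus second) of each member probe set past the threshold in any comparison, with the standard error as a bar and a filled marker where adjusted p is under 0.05. In both nodes the filled markers lie left of 0, with Dnajc1 in the mesenteric node as the exception, and no marker of the anti-ICOS comparison is filled.

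Among the cytosolic J proteins, Dnaja1 and Dnajc7 were more than 2-fold lower in CD25+ cells of both nodes. Dnaja1, a class A partner of Hsp70 in the cytosol, read 8.35, 8.36, 8.37, 7.64 and 7.70 log2 units in the 5 mesenteric CD25+ arrays and 9.64, 9.70 and 9.20 in the CD25- arrays. In peripheral nodes it read 8.44, 7.88 and 7.29 in CD25+ and 9.82, 9.34 and 9.12 in CD25- arrays. The groups did not overlap in either node. The log2 difference was -1.43 (SE 0.26, adjusted p = 0.00314), or 2.69-fold lower, in mesenteric nodes and -1.56 (SE 0.29, adjusted p = 0.00474), or 2.94-fold lower, in peripheral nodes. Dnajc7 carries tetratricopeptide repeats that bind both Hsp70 and Hsp90. Its mesenteric values were 7.15, 7.21, 6.89, 7.05 and 6.76 in CD25+ and 8.21, 8.35 and 7.85 in CD25- arrays, and its peripheral values 6.39, 6.61 and 7.07 against 7.89, 8.05 and 8.09. Again every CD25+ array was below every CD25- array. It was 2.18-fold lower in the mesenteric (log2 -1.12, SE 0.15, adjusted p = 0.000501) and 2.5-fold lower in the peripheral node (log2 -1.32, SE 0.17, adjusted p = 0.00052).

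Dnajb6, which keeps aggregation-prone proteins soluble and whose promoter is shown above, was lower in CD25+ cells by both of its probe sets. The brighter differed by log2 -0.70 in mesenteric (SE 0.17, adjusted p = 0.0137) and -0.70 in peripheral nodes (SE 0.19, adjusted p = 0.0354), the dimmer by -0.50 (SE 0.09, adjusted p = 0.00339) and -0.45 (SE 0.10, adjusted p = 0.0172). The mesenteric call of the dimmer probe set passed under all alternatives, and that of the brighter was lost without CD25- replicate 2 (-0.82 to -0.56 over all alternatives). In peripheral nodes the brighter call was lost in 4 of 6 fits without 1 array (CD25- replicate 1 or 2, CD25+ replicate 2 or 3; -0.92 to -0.56) and after quantile normalization. The dimmer peripheral call was lost in 3 of 6 (CD25- replicate 2 or 3, CD25+ replicate 2; -0.55 to -0.36). Dnajb1 (Hsp40, the heat-inducible partner of Hsp70) passed in the mesenteric node, with 6.11, 6.15, 5.47, 5.35 and 5.32 in CD25+ and 6.59, 6.26 and 6.50 in CD25- arrays (log2 -0.77, SE 0.20, adjusted p = 0.0203). Its 3 lowest arrays were those of 1 of the array-number runs, and its difference was -0.30 within run D and -1.12 within run E. The call was lost without CD25- replicate 1 or 3 or CD25+ replicate 5 (-0.89 to -0.54 over all alternatives). Dnajc21, a factor of ribosome assembly measured by a dim probe set, was also lower there (log2 -0.54, SE 0.11, adjusted p = 0.00639). In the peripheral node Dnajb1 differed by -0.51 (adjusted p = 0.205) and Dnajc21 by -0.43 (adjusted p = 0.0517). Not all J proteins followed: the brightest member of all, Dnajc8, a nuclear J protein linked to splicing, differed by 0.43 in mesenteric (adjusted p = 0.0576) and 0.49 in peripheral nodes (adjusted p = 0.0662). In all, 6 of the 23 J protein probe sets were lower in mesenteric and 4 in peripheral nodes, with none higher in these fits. Under some alternatives Dnajc8 did pass as higher. After quantile normalization it differed by 0.41 in mesenteric (limma adjusted p = 0.0316) and 0.52 in peripheral nodes (limma adjusted p = 0.0258). With the actin ratio as a covariate the mesenteric difference was 0.55 (limma adjusted p = 0.0287).

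Both subunits of the mitochondrial chaperonin were lower in CD25+ cells. Hspd1 read 9.38, 9.46, 9.36, 8.94 and 8.97 in mesenteric CD25+ and 9.63, 9.72 and 9.74 in CD25- arrays, and 8.98, 9.36 and 9.12 against 9.88, 10.31 and 10.32 in peripheral nodes. Hspe1 read 7.81, 7.66, 7.71, 7.39 and 7.32 against 8.08, 7.98 and 7.99 in mesenteric nodes, and 7.5, 7.55 and 7.34 against 8.15, 8.55 and 8.56 in peripheral nodes. The groups were apart for both genes in both nodes. In peripheral nodes Hspd1 was 2.03-fold lower (log2 -1.02, SE 0.16, adjusted p = 0.00177) and Hspe1 1.94-fold lower (log2 -0.95, SE 0.14, adjusted p = 0.00116). Differences in mesenteric nodes were smaller, -0.47 for Hspd1 (SE 0.15, adjusted p = 0.0486) and -0.44 for Hspe1 (SE 0.13, adjusted p = 0.0358). Both mesenteric calls sat near the threshold: each was lost in 5 of the 8 fits without 1 array (CD25- replicate 1, 2 or 3, CD25+ replicate 4 or 5). Each was also lost after quantile normalization and with the array-number run as a block. Over all alternatives the mesenteric differences ran from -0.53 to -0.28 for Hspd1 and from -0.50 to -0.29 for Hspe1. The second Hspd1 probe set differed by 0.11 and 0.03 in the respective nodes and did not pass. Hspa9, the Hsp70 of the mitochondrial matrix, differed by -0.22 (adjusted p = 0.577) and -0.54 (adjusted p = 0.184). The mitochondrial J proteins Dnaja3, Dnajc4, Dnajc11 and Dnajc15 did not pass in either node.

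**Figure D2:**
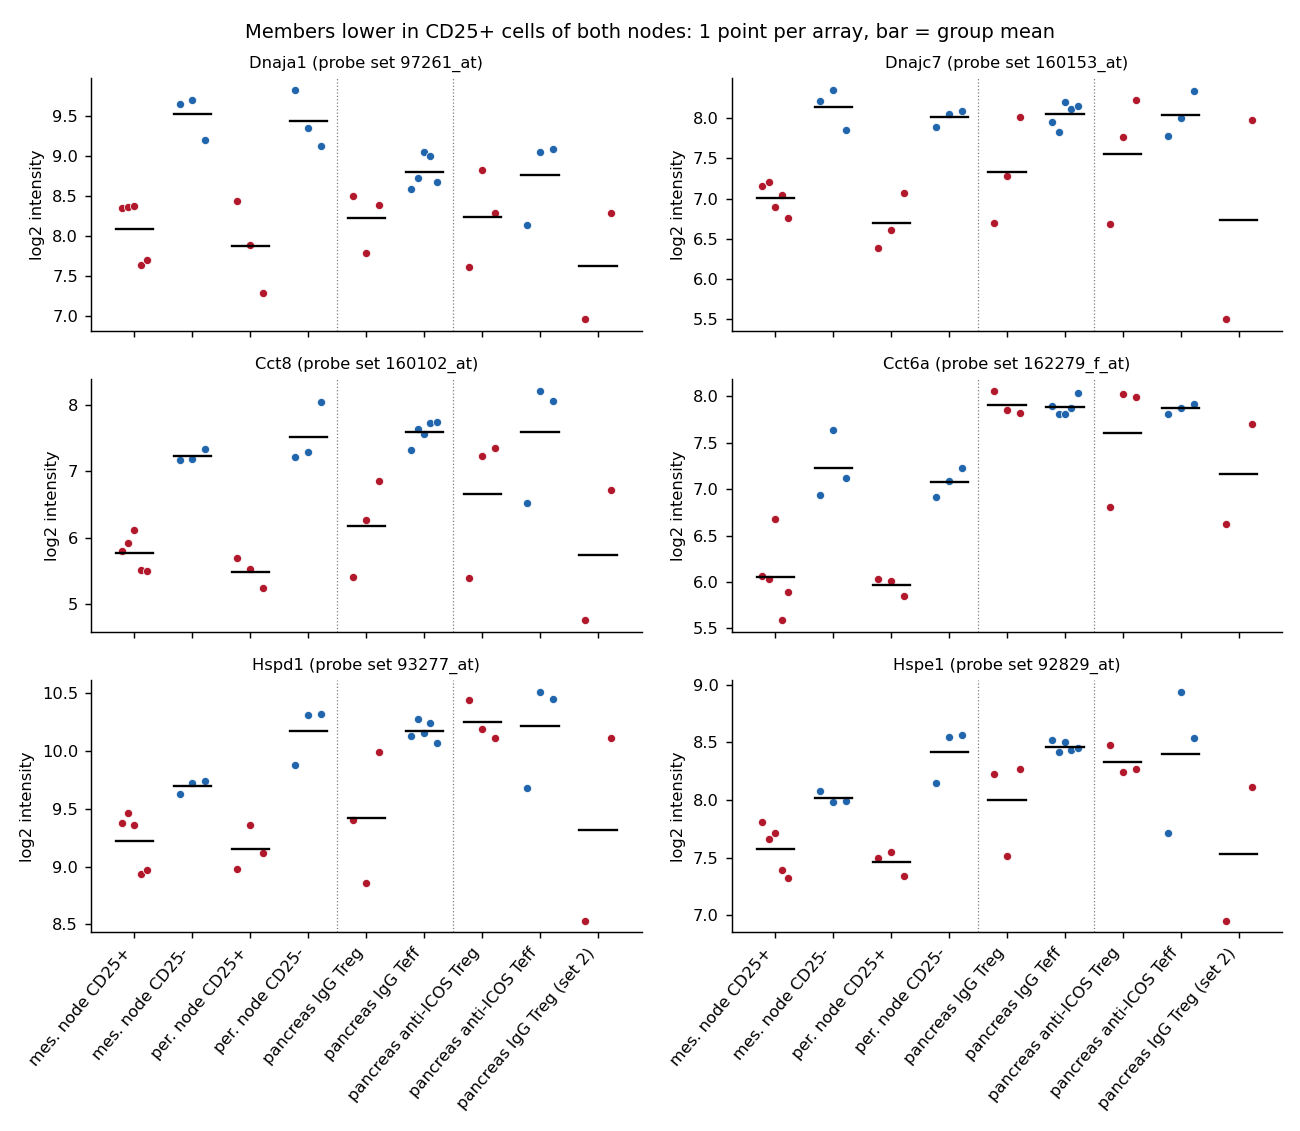
Log2 intensity (y axis) of 6 members on every array in 9 groups (x axis), with red points for CD25+ or Treg cells, blue points for CD25- or Teff cells and a bar at the group mean. CD25+ node arrays lie below CD25- arrays in all 6 panels. Cct6a is near 7.9 in both IgG groups of the first pancreatic set, and at 6.63 and 7.70 in the IgG Treg arrays of the second.

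Within CCT, 3 of 14 probe sets were lower in mesenteric and 4 in peripheral CD25+ cells, and these belonged to few of the subunits. Cct8, the theta subunit, gave the largest difference of all members in both nodes. It read 5.80, 5.92, 6.11, 5.51 and 5.49 in mesenteric CD25+ and 7.18, 7.19 and 7.34 in CD25- arrays, and in peripheral nodes 5.69, 5.52 and 5.23 against 7.22, 7.30 and 8.05. More than 1 log2 unit therefore lay between the groups in each node. It was 2.77-fold lower in mesenteric (log2 -1.47, SE 0.19, adjusted p = 0.000318) and 4.12-fold lower in peripheral nodes (log2 -2.04, SE 0.21, adjusted p = 9.06e-05). Cct6a, the zeta subunit, read 6.07, 6.03, 6.68, 5.59 and 5.89 against 6.94, 7.64 and 7.12 in mesenteric nodes, and 6.03, 6.01 and 5.85 against 6.92, 7.09 and 7.23 in peripheral nodes. It was 2.27-fold lower (log2 -1.18, SE 0.20, adjusted p = 0.00217) and 2.17-fold lower (log2 -1.12, SE 0.23, adjusted p = 0.00778). Its other probe set disagreed, at 0.04 and -0.14.

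Cct4, the delta subunit, read 8.02, 8.05, 8.72, 8.16 and 7.91 in mesenteric CD25+ and 8.78, 9.14 and 8.85 in CD25- arrays, and 7.86, 8.37 and 8.10 against 9, 8.91 and 9.30 in peripheral nodes. Its groups did not overlap, and it differed by -0.75 (SE 0.17, adjusted p = 0.0128) and -0.96 (SE 0.20, adjusted p = 0.00792). The mesenteric Cct4 call was lost without CD25- replicate 2. Cct3, the gamma subunit, passed in peripheral nodes by 1 of 3 probe sets, at 4.89, 5.46 and 5.20 in CD25+ and 5.95, 6.68 and 6.65 in CD25- arrays (log2 -1.24, SE 0.25, adjusted p = 0.00727). Its other probe sets differed by -0.76 (adjusted p = 0.0914) and 0.03 there. The remaining subunits did not pass: Cct2 differed by 0.11 in mesenteric and 0.15 in peripheral nodes, Cct5 by 0.10 and -0.22, Cct7 by 0.25 and -0.21, and Tcp1 by 0.01 and -0.43 (adjusted p = 0.344). Cct6b, the zeta form of testis, was dim and differed by -0.07 and -0.02. Subunits of this 1 complex thus gave unequal differences on these arrays.

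**Figure D3:**
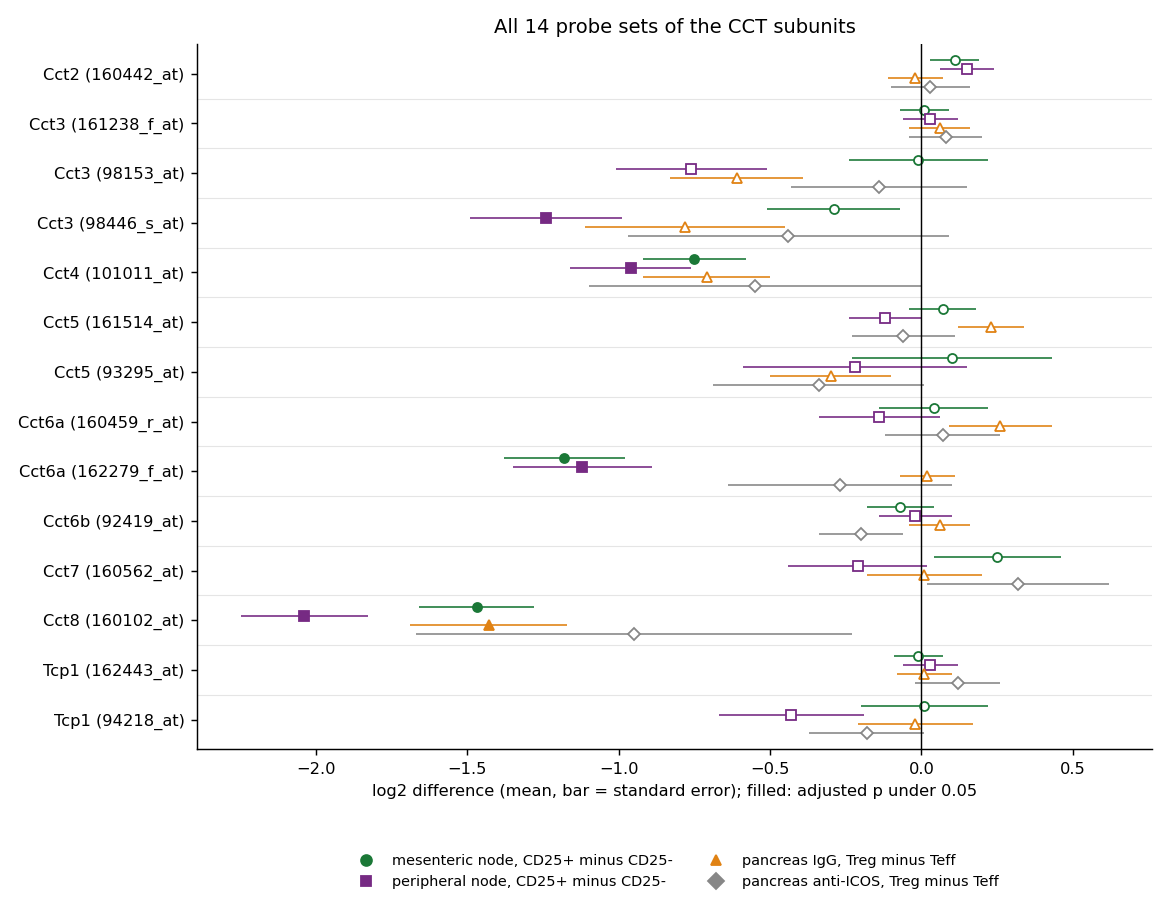
Log2 differences (x axis) with standard errors for all 14 probe sets of the CCT subunits in 4 comparisons, with filled markers for adjusted p under 0.05. Cct8 lies farthest left in all 4 comparisons, and Cct2 lies within 0.15 of 0 in each.

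Among the cytosolic heat shock proteins, 1 of 22 probe sets passed in mesenteric and 4 in peripheral nodes, all lower in CD25+ cells. Hspb11 passed in both nodes. It read 5.85, 5.80, 5.96, 5.71 and 5.80 in mesenteric CD25+ and 6.43, 6.29 and 6.46 in CD25- arrays, and 5.75, 5.84 and 5.82 against 6.42, 6.66 and 6.33 in peripheral nodes. The arrays of a group were close together and the groups apart, with differences of -0.57 (SE 0.09, adjusted p = 0.00111) and -0.67 (SE 0.10, adjusted p = 0.00116). The other 3 peripheral calls were in the Hsp70 and Hsp110 cycle. Hsph1 (Hsp110) read 6.72, 7.08 and 6.94 in CD25+ and 7.63, 8.04 and 7.88 in CD25- arrays (log2 -0.93, SE 0.24, adjusted p = 0.0316). Hspa14, the Hsp70 of the ribosome-associated complex, read 4.78, 5.23 and 5.61 against 5.75, 6.14 and 6.18 (log2 -0.82, SE 0.20, adjusted p = 0.0249). Hspa4, a further Hsp110 relative, was lower by 1 probe set, at 5.30, 4.95 and 5.02 against 5.80, 5.81 and 5.88 (log2 -0.74, SE 0.14, adjusted p = 0.00517). Every CD25+ array lay below every CD25- array for these 3 probe sets. The other 4 Hspa4 probe sets differed by -0.26 to 0.14, so this gene rests on 1 of 5. The Hsph1 call was lost without any 1 of 5 arrays (CD25- replicate 2 or 3, CD25+ replicate 1, 2 or 3; differences from -1.04 to -0.62 over all alternatives). The Hspa14 call was lost without CD25- replicate 2 or 3 or CD25+ replicate 1 or 2 (from -1.02 to -0.52). In mesenteric nodes Hsph1 differed by -0.45 (adjusted p = 0.223), Hspa14 by -0.18 (adjusted p = 0.613) and this Hspa4 probe set by -0.35 (adjusted p = 0.0839). The brightest Hspa4 probe set averaged 8.64 in mesenteric CD25+ and 8.28 in CD25- arrays. The rest averaged 5.81 against 5.63, 5.22 against 5.09 and 2.65 against 2.77, so the probe sets of Hspa4 gave no single direction there.

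The abundant cytosolic chaperones did not pass. Hspa8, the constitutive Hsp70, differed by -0.29 in mesenteric (adjusted p = 0.351) and -0.45 in peripheral nodes (adjusted p = 0.213). Hsp90aa1 differed by -0.11 (adjusted p = 0.8) and -0.47 (adjusted p = 0.205). The classic heat-inducible genes were dim throughout: Hspa1a read 3.97 to 4.57 and Hspa1b 3.28 to 3.67 in the 14 node arrays, below the median probe set. Hspa1a differed by -0.10 in mesenteric and 0.09 in peripheral nodes, Hspa1b by -0.06 and 0.02, and Hspb1, a dim small heat shock protein, by 0.17 and 0.15. Differences at this brightness are hard to detect on these arrays.

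ER members moved in both directions. In mesenteric nodes Dnajc1, a membrane J protein that recruits BiP near the ribosome, was the 1 member higher in CD25+ cells, at 5.89, 5.90, 5.45, 6.24 and 6.15 against 5.35, 5.29 and 5.15 (log2 0.66, SE 0.18, adjusted p = 0.0267). This call was lost in 5 of the 8 fits without 1 array (CD25- replicate 1, 2 or 3, CD25+ replicate 4 or 5; 0.49 to 0.78 over all alternatives), and the peripheral difference was 0.50 (adjusted p = 0.166). Dnajc3, a BiP partner that also restrains the kinase Eif2ak3, was lower at 5.44, 5.08, 5.28, 5.32 and 5.27 against 6.04, 6.21 and 6.23 (log2 -0.88, SE 0.21, adjusted p = 0.0162). Its groups were apart, but its other 3 probe sets differed by -0.05 to 0.12, and the call was lost without CD25- replicate 2 or 3. In peripheral nodes Hspa5 was 2-fold lower, at 6.27, 6.81 and 7.24 in CD25+ and 7.39, 7.80 and 8.12 in CD25- arrays (log2 -1.0, SE 0.26, adjusted p = 0.0329). Its lowest value was that of CD25+ replicate 1, and the call was lost without CD25- replicate 2 or 3 or CD25+ replicate 1 or 2 (-1.23 to -0.74 over all alternatives). In mesenteric nodes Hspa5 differed by -0.17 (adjusted p = 0.739), and Hsp90b1 differed by -0.20 in mesenteric (adjusted p = 0.49) and -0.55 in peripheral nodes (adjusted p = 0.0643).

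The array-number run and the actin ratio were set against these node results. Array numbers in the labels fall into runs, and both nodes have CD25+ and CD25- arrays in run D and in run E. All 14 mesenteric calls kept their sign within run D (sizes 0.26 to 1.32) and run E (0.28 to 1.63), and all 15 peripheral calls did within run D (0.43 to 2.03) and run E (0.48 to 2.07). With the run as a block the mesenteric calls of Hspd1 and Hspe1 were lost. With the actin ratio as a covariate, 9 of the 14 mesenteric calls remained: Hspb11, Dnaja1, Dnajb6 by both probe sets, Dnajc7, Dnajc21, Dnajc3, Cct6a and Cct8. Of the 15 peripheral calls 4 remained, Cct8, Dnajc7, Hspb11 and Hspa4, while Hspd1, Hspe1, Dnaja1, Dnajb6, Cct3, Cct4, Cct6a, Hsph1, Hspa14 and Hspa5 no longer passed. All 15 peripheral differences kept their sign and 9 kept at least 80% of their size, 6 of them among the 11 calls lost. Peripheral Dnaja1 was -1.65 with the covariate (adjusted p = 0.0634), the brighter Dnajb6 probe set -0.92 (adjusted p = 0.0873), Cct6a -1.03 (adjusted p = 0.146) and Hspa5 -0.89 (adjusted p = 0.327). Hspd1 shrank to -0.61 (adjusted p = 0.089), Hsph1 to -0.62 (adjusted p = 0.498) and Hspa14 to -0.52 (adjusted p = 0.472). Standard errors with the covariate were 1.03 to 1.45 times those without it. Peripheral CD25+ replicate 1 was the lowest of the 14 node arrays at 19 of the 58 bright members (32.8%) and at 16.6% of all bright probe sets, and its actin ratio of 3.30 was the highest in nodes. Without it 16 members passed, 12 of them among the 15. The summed erythroid signal was 145 to 3051 in CD25+ and 159 to 1297 in CD25- peripheral arrays, and Cd79b, 1 of 4 B cell markers, was higher in mesenteric CD25+ cells (log2 1.07, adjusted p = 0.0231); the part of these cells was not tested.

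**Figure D4:**
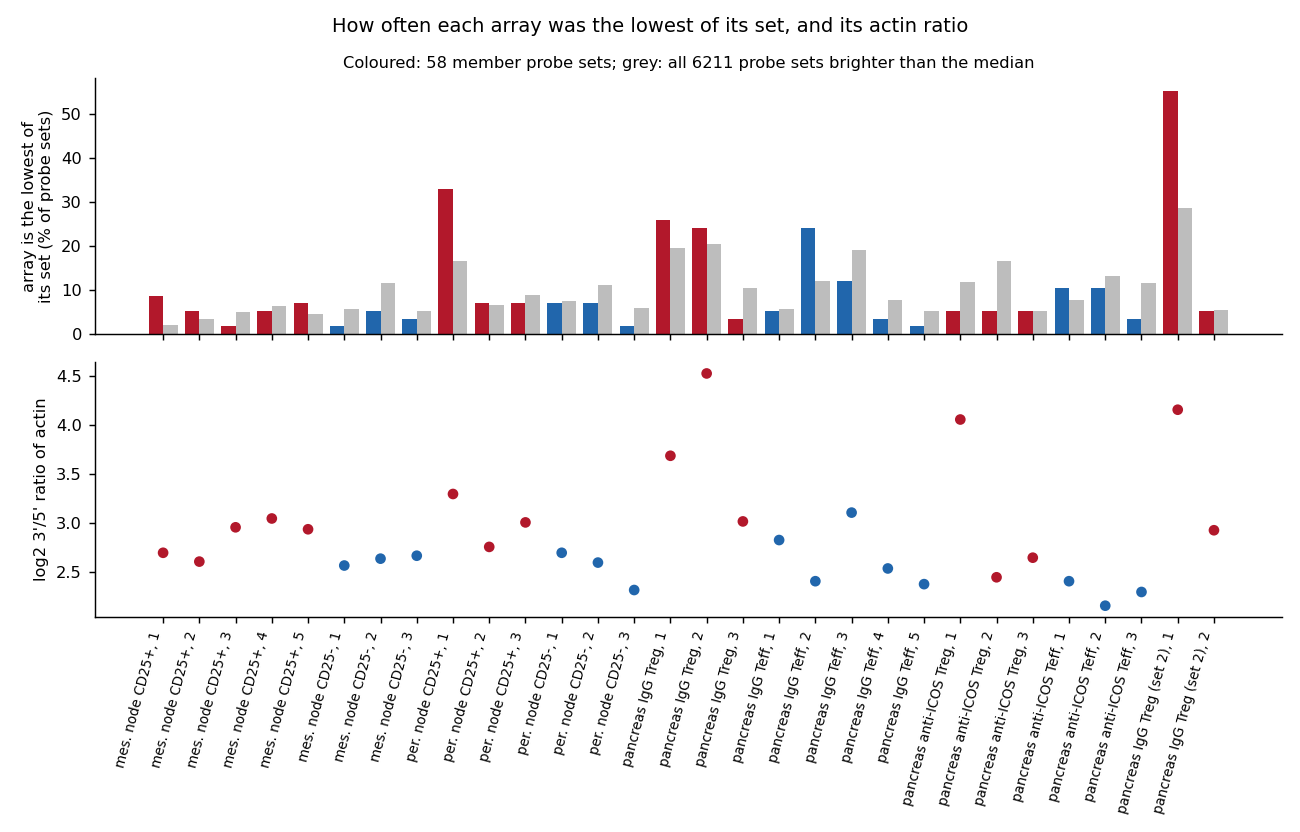
Upper panel: percent (y axis) of the 58 bright member probe sets (coloured) and of all 6211 bright probe sets (grey) at which each array (x axis) was the lowest of its set; lower panel: log2 3'/5' ratio of actin. Replicate 1 of the IgG Treg arrays in the second pancreatic set was lowest at 55.2% of members and replicate 1 of peripheral CD25+ at 32.8%.

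Compared directly between the nodes, no member passed. In limma 0 of 79 passed for CD25+ cells, mesenteric minus peripheral (4 with unadjusted p under 0.05), where 0.0725% of all probe sets passed. For CD25- cells 0 of 79 passed (5 unadjusted), where 0.451% of all did. The test of whether the CD25+ minus CD25- difference itself varied between nodes gave 0 of 79 (6 unadjusted), with 0.00805% of all probe sets past the threshold. For the members past the threshold in 1 node only, a difference between nodes was therefore not detected: the interaction was 0.82 for Hspa5, 0.95 for the called Cct3 probe set and 0.48 for Hsph1, each with adjusted p = 1.

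In the infiltrated pancreas of IgG-treated mice, 6 of 79 members (7.59%) differed between Treg and Teff cells, 4 lower and 2 higher in Treg cells. The background was 6.69% of all probe sets, 2.76% lower and 3.93% higher, so the share of chaperones was near that of the array. Cct8 was the member that passed here and in both nodes: it read 5.40, 6.27 and 6.86 in Treg and 7.33, 7.64, 7.57, 7.73 and 7.75 in Teff arrays. It was 2.69-fold lower in Treg cells with no overlap (log2 -1.43, SE 0.26, adjusted p = 0.01). Hspa9 read 7.97, 7.86 and 8.66 in Treg and 8.85, 8.95, 9, 9.03 and 8.83 in Teff arrays, 1.71-fold lower (log2 -0.77, SE 0.16, adjusted p = 0.0198). The call for Hspa9 was lost without Treg replicate 1 or 2. The J protein Dnajb1 read 5.19, 5.11 and 5.21 against 5.72, 5.82, 6.04, 5.53 and 5.52 (log2 -0.56, SE 0.12, adjusted p = 0.0262), and Dnaja2, another class A partner of Hsp70, 5.66, 5.59 and 5.96 against 6.18, 6.23, 6.46, 6.19 and 6.29 (log2 -0.53, SE 0.11, adjusted p = 0.0177). Both were apart between the groups. The Dnajb1 call was lost without Treg replicate 1 or 2 or Teff replicate 2, and that of Dnaja2 without Treg replicate 2 or Teff replicate 5.

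The 2 members higher in pancreatic IgG Treg cells were Dnajb11 and Dnajb13. Dnajb11 (ERdj3), a soluble BiP partner of the ER lumen, read 8.09, 8.17 and 8.51 in Treg and 7.04, 6.68, 7.43, 7.63 and 7.26 in Teff arrays. It was 2.07-fold higher with the groups apart (log2 1.05, SE 0.20, adjusted p = 0.0114), and it passed in all 8 fits without 1 array. Dnajb13, a protein of the flagellar axoneme, read 6.96, 6.66 and 6.25 against 6.12, 6.10, 5.95, 5.82 and 6.20 (log2 0.59, SE 0.15, adjusted p = 0.0485). That call was lost in 7 of 8 fits without 1 array (all but Treg replicate 3; 0.42 to 0.77 over all alternatives), and its second probe set differed by 0.40 (adjusted p = 0.566). Of the other ER members, Hspa5 read 8.06, 8.09 and 8.64 against 8.21, 7.86, 8.33, 8.30 and 8.33 (log2 0.06, adjusted p = 0.889), and Hsp90b1 differed by 0.43 (adjusted p = 0.245).

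**Figure D5:**
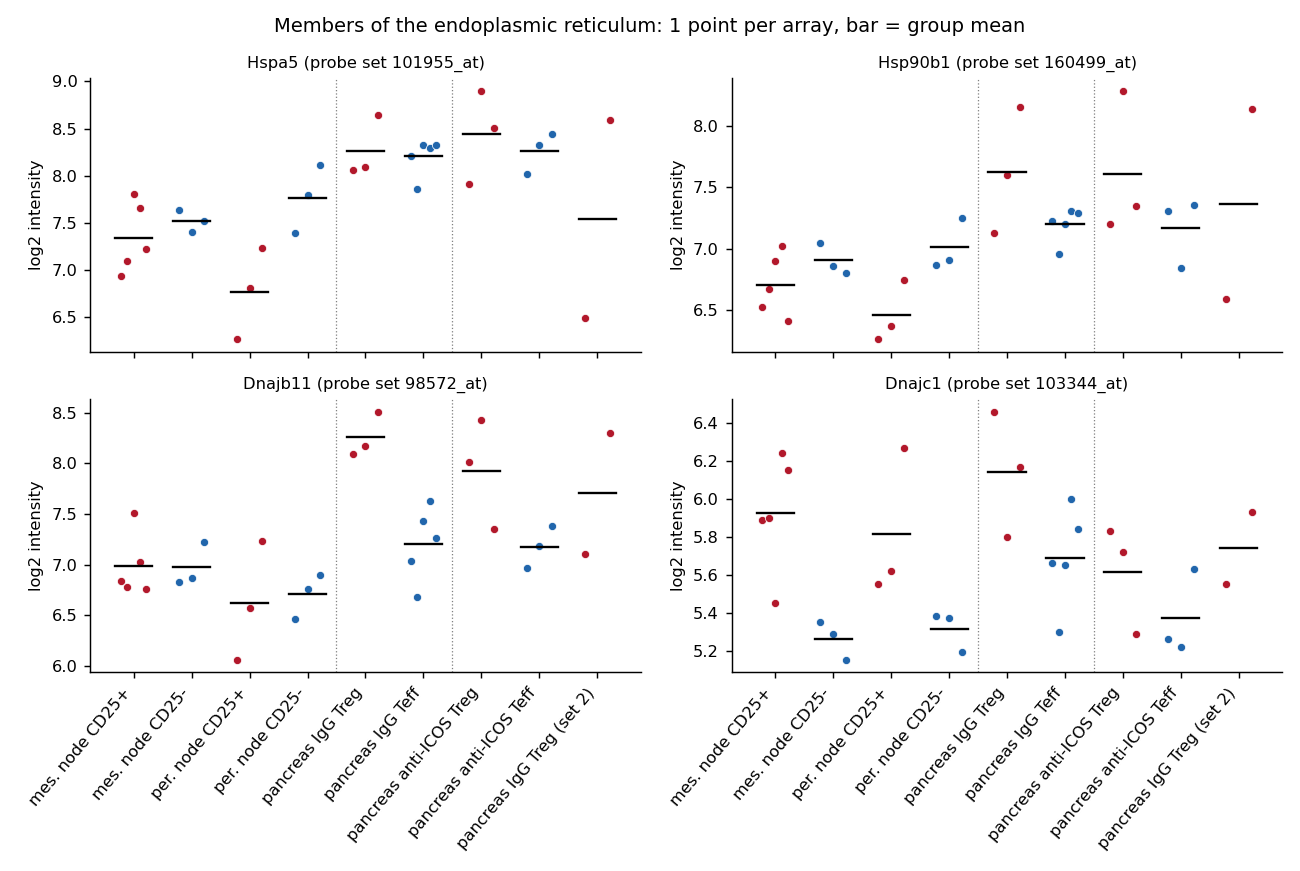
Log2 intensity (y axis) of Hspa5, Hsp90b1, Dnajb11 and Dnajc1 on every array in 9 groups (x axis), red for CD25+ or Treg cells, blue for CD25- or Teff cells, bar at the group mean. The 3 IgG Treg arrays of the first pancreatic set read 8.09 to 8.51 for Dnajb11, above its 5 Teff arrays at 6.68 to 7.63, while Hspa5 overlaps.

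Some members that passed in nodes read lower in pancreatic IgG Treg cells without passing, while others, such as Cct6a (0.02) and Hsph1 (0.13), did not. They were picked by their node results, and likeness between the tissues was not tested. Hspd1 read 9.40, 8.86 and 9.99 in IgG Treg and 10.13, 10.27, 10.15, 10.24 and 10.07 in Teff arrays (log2 -0.75, SE 0.20, adjusted p = 0.0529), and Hspe1 differed by -0.46 (adjusted p = 0.126). Dnaja1 read 8.50, 7.78 and 8.38 against 8.59, 8.72, 9.04, 8.99 and 8.67 (log2 -0.58, SE 0.17, adjusted p = 0.075). Dnajc7 differed by -0.72 (adjusted p = 0.113) and Cct4 by -0.71 (adjusted p = 0.075). Groups did not overlap for Hspd1 and Dnaja1, as for 11 of the 79 members and 14.1% of all probe sets. Neither Hspa8 (-0.20), Hsp90aa1 (0.12), Hsph1 (0.13), Hspa1a (-0.23), Hspa1b (-0.12) nor Hspb1 (0.13) passed, nor did the subunits Tcp1 (-0.02), Cct2 (-0.02), Cct5 (-0.30), Cct7 (0.01) and Cct6a (0.02). Within each array-number run all 6 called members kept their sign (sizes 0.55 to 2.09, 0.71 to 1.31 and 0.25 to 1.06 in runs A, B and C). With the actin ratio as a covariate 0 of the 6 passed, all 6 kept their sign, and standard errors were 1.3 to 1.66 times as large. Dnajb11 was 1.12 with the covariate (SE 0.33, adjusted p = 0.239) and Dnajb1 -0.64 (SE 0.20, adjusted p = 0.293), so neither difference was smaller. Cct8 was -1.07 (SE 0.41, adjusted p = 0.444), Dnajb13 0.44, Dnaja2 -0.40 and Hspa9 -0.38, all smaller than without it. Treg replicate 2 had the highest actin ratio (4.53): without it 2 members passed, and without Treg replicate 3 12 passed. Markers of other cells also moved: the summed erythroid signal (Hba-a1 and Alas2) was 2312 to 2886 in Treg and 471 to 2232 in Teff arrays, and 1 of 4 B cell markers, Cd79b, was higher in Treg cells. The B cell sums were 183 to 225 in Treg and 174 to 193 in Teff arrays. Of 5 exocrine pancreas markers with a probe set 0 passed, with a median difference of 0.21. One of them, Prss2, read 5.06 to 7.92 in Treg and 5.8 to 6.91 in Teff arrays, so exocrine signal was uneven between Treg arrays. The part of these cells in the chaperone differences was not tested.

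After anti-ICOS treatment no member passed between Treg and Teff cells. The sorts themselves were not clearly apart here: Ctla4 read 6.02 to 8.96 in Treg and 5.81 to 6.26 in Teff arrays, and 0 of 4 Treg markers passed. A lack of calls in this comparison therefore does not show equal levels. In limma 0 of 79 passed, 1 with unadjusted p under 0.05, as 0% of all 12422 probe sets passed and 209 did unadjusted. Cct8 read 5.38, 7.23 and 7.35 in Treg and 6.52, 8.22 and 8.07 in Teff arrays (log2 -0.95, SE 0.72). Dnajb11 read 8.01, 8.43 and 7.35 against 6.97, 7.19 and 7.38 (log2 0.75, SE 0.35). Dnaja1 differed by -0.52, Cct4 by -0.55 and Hspd1 by 0.03. Replicate 1 was the lowest Treg array for Cct8. Same-numbered Treg and Teff arrays deviated together, but the labels give no pairing beyond the number. Only the replicate 1 arrays of both sorts shared an array-number run. Within these 3 assumed pairs Cct8 differed by -1.14, -1.0 and -0.72 and Dnaja1 by -0.53, -0.22 and -0.80, each lower in Treg cells. The share of all probe sets with the same sign in all 3 pairs was not counted. With the pair as a replicate block the Cct8 difference had an SE of 0.12 (limma unadjusted p = 0.00019, adjusted p = 0.741) and that of Dnaja1 an SE of 0.14 (unadjusted p = 0.0104, adjusted p = 0.741). In that fit 0 of 79 members passed as well and 5 had an unadjusted p under 0.05, with 0 and 717 of all probe sets.

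Treg cells of anti-ICOS and IgG mice were compared within the second pancreatic set, with different CD69 gates. The anti-ICOS Treg arrays were not uniform for Treg markers: Ctla4 read 6.02 to 8.96 in them and 7.9 to 8.19 in the IgG arrays. No member passed in limma (4 with unadjusted p under 0.05), as 0% of all probe sets did (425 unadjusted). Of the 79 differences 51 were positive and 28 negative, with a median of 0.17. Over all probe sets 59.1% were negative and the median was -0.05, while probe sets brighter than the median had a median difference of 0.02. The 2 IgG arrays were far apart: they read 4.75 and 6.72 for Cct8, 5.5 and 7.97 for Dnajc7, and 6.49 and 8.59 for Hspa5. Replicate 1, from a mouse aged 4 weeks and with an actin ratio of 4.16, was the lowest of the 8 arrays at 32 of the 58 bright members (55.2%) and at 28.6% of all bright probe sets. Without it 0 members passed as well. The summed erythroid signal was 2917 to 10164 in the IgG and 99 to 2418 in the anti-ICOS Treg arrays, and the myeloid marker Lyz2 read 9.12 in IgG replicate 1, 3.37 in replicate 2 and 2.73 to 3.26 in the anti-ICOS Treg arrays. The summed signal of 6 macrophage and dendritic markers was 177 to 892 in the IgG and 158 to 225 in the anti-ICOS Treg arrays, with 0 of 6 past the threshold. The part of these cells in the member differences was not tested. Hspa8 read 9.44, 9.50 and 9.44 in anti-ICOS and 8.35 and 9.34 in IgG Treg arrays (log2 0.61, unadjusted p = 0.0424, adjusted p = 0.893). For Teff cells, anti-ICOS against IgG in a joint fit of both pancreatic sets after quantile normalization, 0 of 79 passed (2 unadjusted), as 0% of all probe sets did (512 unadjusted), and the median over members was 0.01.

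The Treg minus Teff difference in pancreas was then set against the mean CD25+ minus CD25- difference of the nodes, in a joint quantile-normalized fit of 22 arrays. Here 4 of 79 members (5.06%) passed, against 2.08% of all probe sets, and all 4 were more positive in pancreas, as were 1.22% of all. Cct6a differed by 1.11 (SE 0.23, adjusted p = 0.0119): in the first pancreatic set it read 8.06, 7.85 and 7.82 in Treg and 7.90, 7.81, 7.81, 7.88 and 8.04 in Teff arrays, with no gap, unlike in nodes. In the second set, outside this fit, Cct6a was less even. It read 6.63 and 7.70 in IgG Treg, 6.81, 8.03 and 7.99 in anti-ICOS Treg and 7.81, 7.88 and 7.92 in anti-ICOS Teff arrays. Its other probe set differed by 0.34 (adjusted p = 0.534). Dnajb11 differed by 1.10 (SE 0.26, adjusted p = 0.032), since it was higher in pancreatic Treg cells and differed in nodes by 0.01 and -0.09. Hsp90b1 differed by 0.78 (SE 0.20, adjusted p = 0.0441) and Hspb11 by 0.47 (SE 0.12, adjusted p = 0.045). Cct6a passed in all 22 fits without 1 array, whereas Dnajb11 was lost in 8, Hspb11 in 16 and Hsp90b1 in 16 of them, and with the actin ratio as a covariate none of the 4 passed. The differences were then 1.11 for Cct6a (adjusted p = 0.0711), 1.12 for Dnajb11 (adjusted p = 0.136) and 0.88 for Hsp90b1 (adjusted p = 0.108), no smaller than before, and 0.29 for Hspb11 (adjusted p = 0.376). Tissue, CD69 gate, age and array set go together in this contrast and cannot be told apart.

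Levels over all cells of pancreas and nodes were compared on the same normalized scale as a description, without a test. Dnajc2, which joins Hspa14 in the ribosome-associated complex, was the 1 member over 2-fold higher in pancreas without overlap by 1 of its probe sets (log2 difference 1.03, 6.89 to 7.72 in pancreas and 5.89 to 6.68 in nodes), against 0.145% of all probe sets. The brightest Hspa4 probe set was the 1 member over 2-fold lower without overlap (-1.19), against 0.0564% of all. The Hspa4 probe sets disagreed, however: another differed by 1.0 (6.45 to 7.22 in pancreas and 4.85 to 6.49 in nodes), one more by 0.69 without overlap (5.81 to 6.18 and 4.94 to 5.71), and the remaining 2 by 0.06 each, so no direction can be given for the gene. The median over CCT probe sets was 0.32, against 0 over all. The exocrine marker Prss2 read 5.06 to 7.92 in these pancreatic arrays and 3.56 to 5.89 in nodes, as deposited. The part of exocrine cells in these levels was not tested.

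Partner genes of the chaperones were counted next. Of 46 co-chaperones and heat shock regulators, 35 had a probe set, and 6 were lower and 0 higher in mesenteric CD25+ cells, with 5 lower and 0 higher in peripheral ones. The background was 7.53% lower and 4.66% higher of all probe sets in mesenteric, and 5.89% lower and 1.8% higher in peripheral nodes. Their medians were 0.06 and 0.03. Lower in both nodes were Ppid, an Hsp90-bound prolyl isomerase (-0.90, SE 0.17, and -1.06, SE 0.19, adjusted p = 0.00394 in each), Chordc1, an Hsp90 partner (-1.38 and -1.39), Tomm70a, the import receptor that takes clients from Hsp70 and Hsp90 (-1.31 and -1.34), and Fkbp5, another Hsp90 isomerase (-0.44 and -0.82). Vbp1, a prefoldin subunit that hands actin and tubulin to CCT, passed in mesenteric nodes (-1.38, SE 0.29, adjusted p = 0.00667) and differed by -1.02 in peripheral nodes (adjusted p = 0.0715). In IgG pancreas it differed by 0.32, and the difference from nodes was 1.38 (SE 0.33, adjusted p = 0.032). The scaffold Stip1, which joins Hsp70 to Hsp90, did not pass (0.24, 0.11 and 0.02 in mesenteric nodes, peripheral nodes and IgG pancreas). In IgG pancreas 1 of the 35 passed, against 6.69% of all probe sets, the prefoldin subunit Pfdn6 (0.58, SE 0.15, adjusted p = 0.0463).

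Of 36 genes of ER folding and the unfolded protein response, 27 had a probe set. In IgG pancreas 4 were higher and 0 lower in Treg cells, against 3.93% and 2.76% of all probe sets: Xbp1, the transcription factor of that response (1.27, SE 0.26, adjusted p = 0.0164), Manf (0.94, SE 0.12, adjusted p = 0.00147), Creld2 (0.70, SE 0.17, adjusted p = 0.0401) and the sensor Atf6 (0.52, SE 0.08, adjusted p = 0.00552). Manf, an ER-resident trophic factor, read 7.64, 7.60 and 7.5 in Treg and 6.43 to 6.87 in Teff arrays. In mesenteric nodes 4 were higher (Xbp1, Sec61b, Cnpy2 and Sdf2) and 2 lower (Ero1a and Sel1l), and in peripheral nodes 1 was higher (Xbp1) and 2 lower (Ero1a and Sel1l), against 12.2% of all probe sets past the threshold in mesenteric and 7.69% in peripheral nodes. Xbp1 was higher in CD25+ or Treg cells in all 3 comparisons, by 1.91 in mesenteric nodes (SE 0.28, adjusted p = 0.000857) and 1.34 in peripheral nodes (SE 0.32, adjusted p = 0.0192). The chaperones Calr, Canx, Hyou1, Pdia3, Pdia4 and Pdia6 did not pass in any of them. Of 24 immediate early genes, which cell handling can induce, 21 had a probe set. 5 were higher and 4 lower in mesenteric CD25+ cells, 1 higher and 2 lower in peripheral ones, and 0 higher and 1 lower in IgG Treg cells, against 12.2%, 7.69% and 6.69% of all probe sets past the threshold in either direction. Their part in the chaperone differences was not tested.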

How the data were processed

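The 30 samples are one-colour Affymetrix MG-U74Av2 arrays with 29 distinct array numbers. The deposited table gave 1 linear intensity per probe set and array; RMA is named, with no version, per the submitters' processing notes for the nodes and the second pancreatic set, and no source used here gives that of the first set. From the deposited intensities, log2 values were taken and 66 of the 12488 probe sets, the controls, were left out. Of the 12422 others, 10833 named 1 gene, 396 several and 1193 none. Each array set was fitted with all its groups in limma 3.58.1 (R 4.3.3; lmFit and eBayes, two-sided, Benjamini-Hochberg over 12422 probe sets, threshold 0.05). Joint fits of sets were quantile-normalized first, and the array present in both pancreatic sets (IgG Treg replicate 3 of the first, replicate 2 of the second; r = 0.997, against 0.986 for the next) was averaged. Scripts were tested on simulated data. Control names of the node arrays were reordered before actin ratios were taken (r with the first pancreatic set 0.254 as stored, 0.952 reordered).

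A gene is represented by its brightest probe set, unless another of its probe sets passed or is described. Named are all members past the threshold, a set list of well-known members, and of the partner lists the 3 largest differences past the threshold in each direction; Dnajc8, Dnajc2, Hspa4 in the level comparison and the other partner genes named were chosen after their values were seen. The members and lists were chosen with earlier results of these data known. Same-numbered anti-ICOS Treg and Teff arrays deviated together (r = 0.589, 0.283 and 0.237), with the numbers taken from the titles, so values with the replicate block stand beside that comparison. Arrays of unlike number were not correlated, so the pairing is an assumption. Alternatives were quantile normalization, 16 units added before log2, probe sets brighter than the median only, array-number run as a block, replicate block, the actin ratio as a covariate, and leaving out each array. The number of arrays limits the precision.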

Additional observations from a re-analysis of the deposited data

Results flagged for a closer look

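Of 68 tests for a single array far from the rest, 4 flagged 1 array, where chance flags about 1 test in 20. Each test took 1 probe set in 1 group of 5 arrays, either mesenteric CD25+ or pancreatic IgG Teff. The tests share these arrays and are not independent. Cct2 read 6.50 in mesenteric CD25+ replicate 5, against 6.64 to 6.68 in the other 4. Hspa8 read 7.90 in mesenteric CD25+ replicate 1, against 8.36 to 8.48. Hspa5 read 7.86 in IgG Teff replicate 2 of pancreas, against 8.21 to 8.33, and Tcp1 read 5.23 in IgG Teff replicate 3, against 5.57 to 5.64. None of these 4 belongs to a comparison in which that gene passed.

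The difference between sorted populations itself differed between pancreas and nodes for 4 members, more positive in pancreas in each: Cct6a by 1.11, Dnajb11 by 1.10, Hsp90b1 by 0.78 and Hspb11 by 0.47 on the log2 scale.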

How the results depend on the processing

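Of 39 gene results past the threshold, 11 passed under every alternative run, 28 were lost under some and 0 changed sign. Counts of members past the threshold moved by over 1.5 times as follows. With the actin ratio as a covariate the IgG Treg minus Teff count went from 6 to 0 (all probe sets 831 to 86), the peripheral count from 15 to 4 (955 to 267) and the count for pancreas minus node from 4 to 0 (258 to 56). All of these differences kept their sign, and 2 of 6, 9 of 15 and 3 of 4 kept at least 80% of their size. With the replicate number as a block, the mesenteric count went from 14 to 7 (1514 to 832) and the peripheral count from 15 to 18; the node arrays share only a number, with r from 0.0259 to 0.323 in mesenteric and from 0.015 to 0.23 in peripheral pairs. The block changed no call in the other comparisons. As deposited, without joint quantile normalization, the Teff comparison of anti-ICOS with IgG went from 0 to 15, all lower (all probe sets 0 to 4390, median -0.26), and pancreas minus node from 4 to 2. Leaving out 1 array gave 2 (without Treg replicate 2) to 12 (without Treg replicate 3) for IgG Treg minus Teff, 0 to 1 for Treg anti-ICOS minus IgG (the 1 is Hspa8 at 1.11 without IgG replicate 2, which leaves replicate 1 alone, assumed to vary like the other groups), 8 (without CD25- replicate 2) to 17 for the mesenteric, 10 to 17 for the peripheral and 1 to 6 for the pancreas minus node count. Other counts of 0 remained 0. Signal over background limits what can be detected for the members below the median brightness.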
